A study of Mus musculus with 3 samples.

Results

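The cells described here were 200 YFP (+) microglia of mouse lumbar spinal cord that ranked highest on a score of 6 mitosis genes against 10 genes of replication entry. They came from 1 of 3 scRNA-Seq libraries, the one whose cell barcodes carry the suffix 2 (library 2). Of its 3591 cells, 3569 had at least 2000 UMIs (unique molecular identifiers, each standing for 1 captured mRNA molecule). In each of these cells the UMIs of 6 mitosis genes (M: Ube2c, Cenpa, Ccnb1, Ccnb2, Cdc20, Plk1) were added up, the UMIs of 10 genes of the entry into DNA replication (S: Mcm3, Mcm5, Mcm6, Ccne1, Ccne2, Cdc6, Dtl, Gins2, Uhrf1, Slbp) were subtracted, and the difference was divided by the total UMIs of the cell. The 200 cells with the highest score were the members, of 7522 cells in all 3 libraries, and the remaining 3369 cells of library 2 were the comparison (other cells). The same measurements chose the members and describe them, so the levels of these 16 genes are a description.

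The study compared lumbar cord microglia of naive mice with those of mice 24 h and 48 h after transection of the sciatic nerve, on a C57BL/6 background, with 1 library per time point. The mice were young adults heterozygous for Cx3cr1-creER-yfp, an allele in which the Cx3cr1 locus drives both a tamoxifen-dependent Cre recombinase and YFP, and all groups carried it. Cells of 3 animals were pooled per group and sorted as Cx3cr1-YFP (+), so a cell that expressed Cx3cr1 without being a microglial cell could enter the sort. The transection stands in the labels of all 3 samples, the naive one included. No label tied a barcode suffix to a time point, and the libraries are therefore named by suffix only. The libraries held 609, 3591 and 3322 cells, with a median of 2218, 5952 and 5742 UMIs per cell. Because a library was 1 sample, no test between groups was possible. The intervals given below are 95% intervals of counting error (exact Poisson for a level, exact conditional for a fold, exact binomial for a share) and do not cover differences between animals. Those of levels and folds treat pooled UMIs as independent and do not cover differences between cells either. A fold interval that includes or leaves out 1 is therefore no test.

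A dividing cell copies its DNA in S phase, prepares in G2 and separates the chromosomes in mitosis. Cyclin-dependent kinase 1 bound to cyclin B drives the entry into mitosis, the kinases of the Polo and Aurora families build the spindle, and the kinetochores tie each chromosome to it. The anaphase-promoting complex, a ubiquitin ligase that uses the activator Cdc20 and the conjugating enzyme Ube2c, then marks cyclin B for destruction and lets the chromatids part. The mRNAs of these proteins accumulate together in G2 and mitosis, whereas those of the Mcm helicase, cyclin E and other factors that license and start replication peak earlier. Microglia, the resident macrophages of the central nervous system, keep their number largely by dividing in place, and peripheral nerve injury is known to raise their division in the cord.

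The score per 10000 UMIs ran from 16.2 in the top member over a median of 4.14 to 2.54 in the last one, and the first cell outside had 2.53. The last 10 members (2.54 to 2.62) and the first 10 cells outside (2.45 to 2.53) both had a median of 2 M UMIs, so the lower limit of the group does not mark a gap. M UMIs per member were 1 at the lowest, 4 at the median and 32 at the highest, against 0, 1 and 18 in the other cells. S UMIs had a median of 1 in members and 3 in other cells, and 74 members had no S UMI. All 6 M genes were counted in 23 members, whereas 35 members showed a single one of them. The top-ranked cell held 11132 UMIs with 20 M UMIs, 9 of which were Ube2c, and 2 S UMIs. The cell at rank 100 held 7233 UMIs, 3 M UMIs and no S UMI. Of 25 barcodes found in more than 1 library, 2 belonged to members.

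The 5 marker genes of the group (Ube2c, Cenpa, Ccnb1, Cdc20, Plk1) are all part of the score and cannot check the label. That check was made with 132 other genes of mitosis in 5 lists (kinases and cyclins, kinetochore, spindle and cytokinesis, anaphase-promoting complex, mitotic chromatin), which will be called the mitosis lists. The label held for some of the members. In the 80 members with 6 or more M UMIs (M-high members) the mitosis lists took up 15377 CPM (UMIs per 1000000 summed UMIs; 95% interval 15128 to 15629), 2.09-fold the 7355 CPM of the other cells. In the 120 members with 1 to 5 M UMIs (M-low members) they took up 6539 CPM (6338 to 6744), 0.889-fold the level of the other cells. The M-low members are therefore named by their score alone and not as mitotic cells. The boundary of 6 was chosen after the values were seen.

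The level of the mitosis lists followed the number of M UMIs. It was 6113 CPM in the 62 members with 1 or 2 M UMIs, 6860 CPM in the 58 with 3 to 5, 12547 CPM in the 27 with 6 to 9 and 16386 CPM in the 53 with 10 or more. The other cells of library 2 gave 6119 CPM where no M UMI was counted and 6719 CPM with 1 or 2. With 3 to 5 and with 6 to 9 M UMIs the other cells were at 9338 and 13342 CPM, above the members of equal M UMIs, and with 10 or more at 15671 CPM. Per cell, the mitosis lists had 45.0, 157 and 237 UMIs per 10000 in M-high members (lowest, median, highest) and 34.7, 58.5 and 205 in M-low members, with a median of 61.0 in the other cells. Of the 80 M-high members 79 lay above that median, and 53 (66.3%, 54.8 to 76.5%) lay above the 95th percentile of the other cells (135 per 10000). Among the M-low members 56 of 120 lay above the median and 3 (2.50%, 0.519 to 7.13%) above the 95th percentile. The ranges of both sets overlap, but most M-high members stood above nearly all M-low ones.

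**Figure D1:**
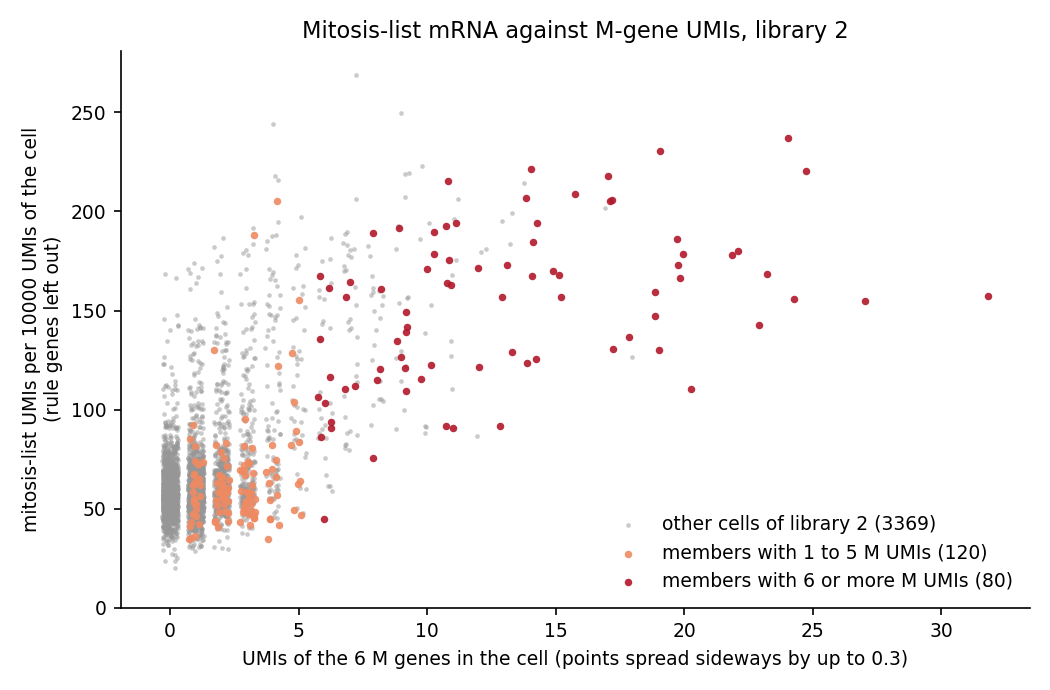
Each point is 1 cell of library 2, with its UMIs of the 6 M genes on the x axis and its UMIs of the 132 mitosis-list genes per 10000 UMIs on the y axis. The 80 M-high members (dark red) had a median of 157 per 10000, and the 120 M-low members (orange) had 58.5, beside 61.0 in the other cells (grey).

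Depth moved with the split. At the median, an M-high member held 11033 UMIs from 3518 genes, an M-low member 5172 UMIs from 2178 genes and one of the other cells 5948 UMIs from 2404 genes. Of the M-high members 30 (37.5%) exceeded 12476 UMIs, the 95th percentile of library 2. A droplet with more than 1 cell also has more UMIs, and the part of such doublets was not tested. Against 514 other cells of closer depth with at most 2 M UMIs, the mitosis lists were 2.08-fold higher in M-high members. These cells had a median of 9122 UMIs, and leaving out cells with more M UMIs changed the comparison along with depth.

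The score also left out cells with as many M UMIs. Library 2 had 198 cells with 6 or more M UMIs, of which 118 were not members. These 118 had a mean of 8.15 M UMIs and 10.1 S UMIs, against 13.2 and 5.20 in M-high members. Their mitosis lists stood at 13877 CPM (13686 to 14069), between the M-high members and the remaining cells of the library.

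The 6 genes of the M score were each about 4- to 5-fold higher in members than in other cells by construction. Ube2c, the ubiquitin-conjugating enzyme of the anaphase-promoting complex, was at 288 CPM in M-high members, 138 CPM in M-low members and 48.7 CPM in other cells. Cenpa, the histone H3 variant that marks the centromere, was at 238, 120 and 45.2 CPM. The cyclins B, Ccnb1 and Ccnb2, were at 163 and 196 CPM in M-high members, 71.4 and 68.2 CPM in M-low members and 26.5 and 27.9 CPM in other cells. Cdc20, the activator of the anaphase-promoting complex, was at 142, 68.2 and 24.9 CPM, and Plk1, the Polo-like kinase of mitotic entry, at 92.0, 27.6 and 14.9 CPM. The order of the M-high and M-low members was also set by the choice, since these sets were split on the summed UMIs of the same 6 genes.

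**Figure D2:**
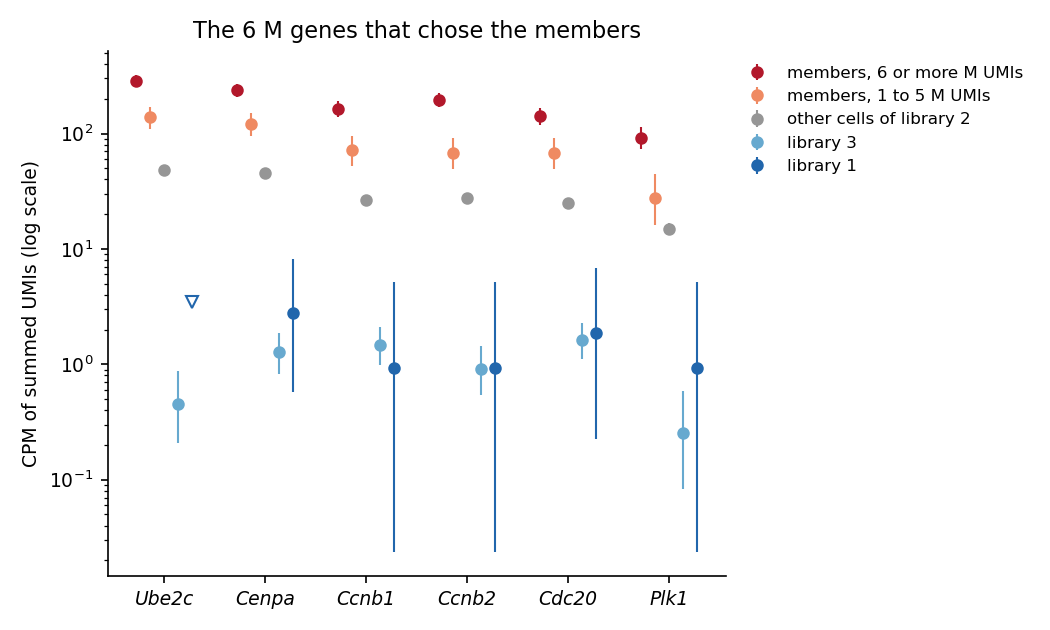
Level of the 6 M genes in CPM of summed UMIs (log scale) in M-high members, M-low members, other cells of library 2, library 3 and library 1. Points are levels and bars 95% counting intervals, and the open triangle is the upper limit of Ube2c in library 1, where no UMI was counted; all library 1 and 3 levels lie at or below 2.81 CPM.

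A repeat that chose cells on a random split of each cell's UMIs and measured the remaining UMIs took the choice of cells out of the measured levels. In it 103 of the 200 chosen cells were members. Ube2c was 3.03-fold higher (2.47 to 3.68) than in the cells not chosen, Ccnb2 3.43-fold, Ccnb1 2.89-fold, Cdc20 2.77-fold, Plk1 2.47-fold and Cenpa 2.44-fold. Of genes outside the score, Cenpf was at 3.16-fold, Hist1h2ap at 3.12-fold, Aurka at 2.93-fold and Hmmr at 2.77-fold. These genes and Tpx2 are among the 15 that stood highest in the members on all UMIs. The repeat did not take out that choice of genes. Tpx2 (2.04-fold), Mki67 (1.98-fold), Top2a (1.68-fold) and Cdk1 (1.504-fold) were lower than the 6 M genes. With every cell thinned to 2000 UMIs, Ube2c was counted in 31 of 80 M-high members (38.8%, 28.1 to 50.3%), in 38 of 120 M-low members (31.7%) and in 298 of 3369 other cells (8.85%). Unthinned shares were 83.8%, 53.3% and 24.9%. The members had been chosen before this thinning, so the choice stayed in these shares. In the same order, thinned shares were 30%, 11.7% and 4.36% for Ccnb1 and 15%, 5.83% and 2.14% for Plk1. Outside the score they were 25%, 4.17% and 4.01% for Hmmr, 31.25%, 2.5% and 7.42% for Cenpf, and 36.25%, 14.2% and 12.9% for Mki67. No cell type without mitosis was set apart in the library to give the background of free RNA, and its part was not tested. Of the M UMIs, Ube2c gave 25.7% in M-high members (23.1 to 28.5%), 26.9% in M-low members with 3 to 5 (21.0 to 33.5%), 30.2% in those with 1 or 2 (21.3 to 40.4%) and 28.1% in other cells with 1 or 2. Ccnb1 gave 14.6%, 16.8%, 9.38% (4.38 to 17.1%) and 15.1% of them in the same sets. In library 3, with 118 M UMIs in all, Ube2c gave 7.63% (3.55 to 13.99%) and Cdc20 27.1% (19.4 to 36.1%), against 12.7% for Cdc20 in M-high members. Of those 118 UMIs 24 lay in 3 cells, and the intervals treat UMIs as independent. A difference between libraries was not tested.

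The promoters of these genes are shown because genes of G2 and mitosis are known to share short promoter elements. One is the CCAAT box, bound by the factor NF-Y. Another is the cell cycle homology region with the letters TTTGAA or TTTAAA, bound by the MuvB complexes. Whether the M genes vary together across cells was not tested. Genes of replication entry more often carry E2F sites, here searched as TTTGGCGC. The windows below run from 120 bases before to 50 after the gene start (RefSeq, GRCm38.p6), 5′ to 3′ on the strand of the gene. In the first 6 windows capitals mark a CCAAT box, which reads ATTGG where it lies on the opposite strand, and both forms of the cell cycle homology region. In the last window, that of the S gene Mcm6, they mark TTTGGCGC alone.
Ccnb1, chr13:100786437-100786606, minus strand: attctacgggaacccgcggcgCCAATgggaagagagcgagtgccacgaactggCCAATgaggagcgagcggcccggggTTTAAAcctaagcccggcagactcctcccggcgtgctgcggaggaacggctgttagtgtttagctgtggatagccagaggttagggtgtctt
Cdc20, chr4:118437294-118437463, minus strand: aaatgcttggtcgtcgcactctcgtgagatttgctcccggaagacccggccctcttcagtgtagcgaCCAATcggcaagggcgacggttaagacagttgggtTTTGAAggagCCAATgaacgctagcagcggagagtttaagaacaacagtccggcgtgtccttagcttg
Plk1, chr7:122159315-122159484, plus strand: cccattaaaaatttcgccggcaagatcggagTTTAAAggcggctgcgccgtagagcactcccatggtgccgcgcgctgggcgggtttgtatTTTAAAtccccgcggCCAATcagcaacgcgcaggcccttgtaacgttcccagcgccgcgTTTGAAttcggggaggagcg
Aurka, chr2:172370521-172370690, minus strand: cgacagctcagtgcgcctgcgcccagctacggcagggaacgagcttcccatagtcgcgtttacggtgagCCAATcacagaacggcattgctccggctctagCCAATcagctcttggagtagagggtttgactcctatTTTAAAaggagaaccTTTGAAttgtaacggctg
Hmmr, chr11:40733388-40733557, minus strand: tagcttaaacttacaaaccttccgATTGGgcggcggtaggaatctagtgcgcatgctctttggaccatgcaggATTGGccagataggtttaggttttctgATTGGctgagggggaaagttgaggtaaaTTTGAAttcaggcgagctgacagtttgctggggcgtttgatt
Cenpf, chr1:189688037-189688206, minus strand: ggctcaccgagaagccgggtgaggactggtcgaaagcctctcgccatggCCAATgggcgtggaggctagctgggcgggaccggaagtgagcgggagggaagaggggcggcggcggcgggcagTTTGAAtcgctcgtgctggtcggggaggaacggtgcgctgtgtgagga
Mcm6, chr1:128359656-128359825, minus strand: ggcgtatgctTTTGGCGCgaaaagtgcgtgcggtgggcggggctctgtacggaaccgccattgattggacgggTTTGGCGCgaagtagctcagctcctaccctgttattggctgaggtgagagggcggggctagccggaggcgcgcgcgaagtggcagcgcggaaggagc
Searched on both strands over 300 bases (250 before to 50 after the start), CCAAT was found in the windows of all 6 M genes, TTTGAA in those of 5 and TTTAAA in those of 3, and TTTGGCGC in none of them. Over all 27025 gene symbols with a window, CCAAT was found for 41.1%, TTTGAA for 20.2%, TTTAAA for 14.9% and TTTGGCGC for 0.585%. Of the 132 mitosis-list genes, 108 had a window, of which 66.7% held CCAAT, 52.8% TTTGAA, 16.7% TTTAAA and 3.70% TTTGGCGC. The 8 S genes with a window gave 75%, 0%, 37.5% and 50%. Letters of different motifs overlapped in 68 pairs of matches over all windows. A match is a run of letters and no evidence of binding.

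Across 7983 genes with at least 10 CPM in library 2, the 16 score genes left out, 45 (0.564%) were at least 2-fold higher in the 200 members than in other cells and 21 (0.263%) at least 2-fold lower, on the log2(CPM + 1) scale. In M-high members 106 genes (1.33%) were higher and 111 (1.39%) lower by that limit. In M-low members 12 (0.150%) were higher and 170 (2.13%) lower. The median log2 ratio of all tested genes was -0.03, -0.04 and -0.03. M-high members held 945818 UMIs in all and M-low members 616322, so calls near 10 CPM rest on few UMIs. How many calls in these sets, lower ones above all, were counting noise was not tested. Of the 45 genes higher in all members, 33 were among the 109 measured genes of the mitosis lists. These counts rest on the contrast that chose the cells and carry no test. For all members they moved with the settings: 12 genes were higher without the 5% deepest cells, 312 were lower with cells thinned to 2000 UMIs and 108 were lower where cells were chosen on a split of the UMIs. Among genes of at least 50 CPM, 11 were higher and 0 lower.

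Of the 15 genes that stood highest outside the score among those with at least 50 CPM in members or other cells, 11 were in the mitosis lists. Hist1h2ae (4.24-fold) and Hist1h2ap (3.11-fold) were cluster histones, Tuba1c was a tubulin and Cdkn2c (2.41-fold) a Cdk inhibitor of G1. Hmmr and Aurka, for example, passed that minimum through the members alone, so the ranking and this tally are a description. Hmmr, a spindle-binding protein also known as a hyaluronan receptor, was at 131 CPM in M-high members, 22.7 CPM in M-low members and 25.7 CPM in other cells, 3.43-fold (2.83 to 4.14) in all members. Aurka, the Aurora kinase of the centrosomes, was at 85.6, 14.6 and 18.6 CPM, and 3.09-fold (2.44 to 3.89). Kpna2, an importin that carries nuclear cargo, was 3.33-fold higher, Cdkn3, a phosphatase that acts on Cdk1 and Cdk2, 3.29-fold, and Tuba1c, an alpha-tubulin, 3.04-fold. Cenpf and Cenpe, which sit at the outer kinetochore, were 3.02- and 2.48-fold higher, the kinesin Kif20b 2.87-fold, the spindle assembly factor Tpx2 2.38-fold and cyclin A2 (Ccna2) 2.46-fold. For each of the 15 genes, the fold of the M-low members was near or under 1. The genes were picked as highest over all members and the sets split on M UMIs of the score, so this is a description.

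**Figure D3:**
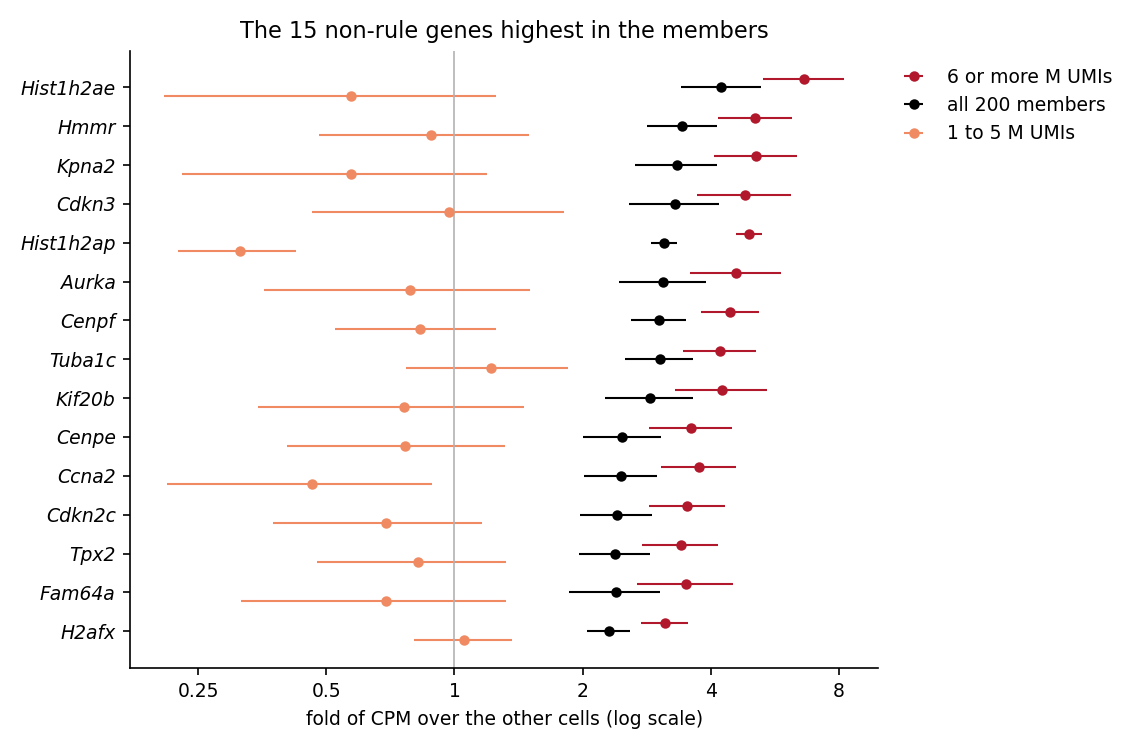
Fold of CPM over other cells (log scale) for the 15 genes outside the score that were highest in the members. Points give M-high members, all 200 members and M-low members with 95% counting intervals: M-high members lie between 3.12-fold (H2afx) and 6.63-fold (Hist1h2ae), and M-low members between 0.313-fold (Hist1h2ap) and 1.22-fold (Tuba1c).

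Among the mitotic kinases and cyclins, 11 of 16 measured genes (of 21 in the list) were at least 2-fold higher in M-high members, none was 2-fold lower, and the median log2 ratio was 1.41. The shares over all genes to set beside this and the following list counts are 1.33% higher and 1.39% lower in M-high members, and 0.15% higher and 2.13% lower in M-low members. Bub1b, a kinase of the spindle checkpoint, was at 43.4 CPM against 10.3 CPM in other cells (4.22-fold). Cdk1 was at 122 against 41.8 CPM, and Cks2, a small subunit of the Cdk1 complex, at 207 against 72.4 CPM. In M-low members, where calls ran mostly lower over all genes, none of the 16 was 2-fold higher, 4 were 2-fold lower (2.13% of all genes) and the median was -0.58. Cdk1 was at 22.7 CPM and Ccna2 at 14.6 CPM there, both under the level of the other cells.

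The spindle, kinesin and cytokinesis list gave the highest median, 1.75, and all of its 24 measured genes (of 35) were at least 2-fold higher in M-high members. Kif20a, a kinesin of the spindle midzone, was 5.40-fold higher, Anln, the anillin of the cleavage furrow, 4.87-fold, the spindle motor Kif11 4.46-fold and Kif23, a part of the midzone complex centralspindlin, 4.44-fold. Nusap1, which bundles spindle microtubules, was at 127 CPM against 38.7 CPM. In M-low members none of the 24 was 2-fold higher, 4 were 2-fold lower and the median was -0.38.

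Of 28 measured genes of kinetochore and centromere (of 34), 13 were at least 2-fold higher in M-high members and all 28 lay above a ratio of 1, with a median of 0.86. Cenpf was at 200 CPM in M-high members, 37.3 CPM in M-low members and 44.9 CPM in other cells. Birc5 (survivin) and Cdca8 (borealin), both subunits of the chromosomal passenger complex, were at 313 and 203 CPM in M-high members against 109 and 73.3 CPM. Bub3, a checkpoint protein that other cell cycle phases also use, was 1.47-fold higher. In mitotic chromatin (condensin, cohesin, high mobility group and histone variant genes), 11 of 23 measured genes were at least 2-fold higher, with a median of 0.92. Top2a, the topoisomerase that untangles chromosomes, was at 504 CPM against 184 CPM, Mki67, which coats mitotic chromosomes, at 240 against 83.4 CPM, and H2afz, the abundant H2A.Z variant, at 2204 against 1163 CPM.

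Subunits and regulators of the anaphase-promoting complex lay in the same direction in M-high members with smaller ratios. Of 18 measured genes 15 were above a ratio of 1, beside 3591 of all 7983 genes. The list summed to 1614 CPM against 1268 CPM in other cells, 1.27-fold (1.21 to 1.34), and the median log2 ratio was 0.12. None passed 2-fold in either direction, a count near the 1.33% and 1.39% of all genes. Ube2s, its chain-elongating ubiquitin enzyme, was at 489 CPM against 260 CPM (1.88-fold) and gave most of the rise in the sum. Anapc11, its catalytic RING subunit, was at 197 against 180 CPM. Pttg1, the securin that holds separase back, was at 62.4 against 57.8 CPM. Cdc20 and Ube2c, which belong to the same machine, were part of the score. The factors that transcribe cell cycle genes gave a median of 0.16, with 9 of 12 above a ratio of 1, a summed fold of 1.11 (1.01 to 1.21) and none past 2-fold. Rbbp4, a histone-binding subunit of the MuvB complexes and the most abundant of these factors, was at 115 CPM in M-high members and 96.7 CPM in other cells. E2f1 was at 40.2 and 52.1 CPM.

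Tubulins and stathmin, which set microtubule assembly, had a median of 0.69 over 9 genes in M-high members, 3 of them past 2-fold. Tuba1b, the most abundant, was at 1407 CPM against 688 CPM, Tubb4b at 335 against 128 CPM and Stmn1, which destabilizes microtubules, at 1171 against 597 CPM. Among G1 cyclins and Cdk inhibitors 2 of 13 were 2-fold higher, Cdkn2c (p18) at 116 against 33.0 CPM and Cdkn2d (p19) at 130 against 49.8 CPM, and the median was -0.06. Cdkn1a (p21) was at 247 CPM in M-high members and 280 CPM in other cells.

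**Figure D4:**
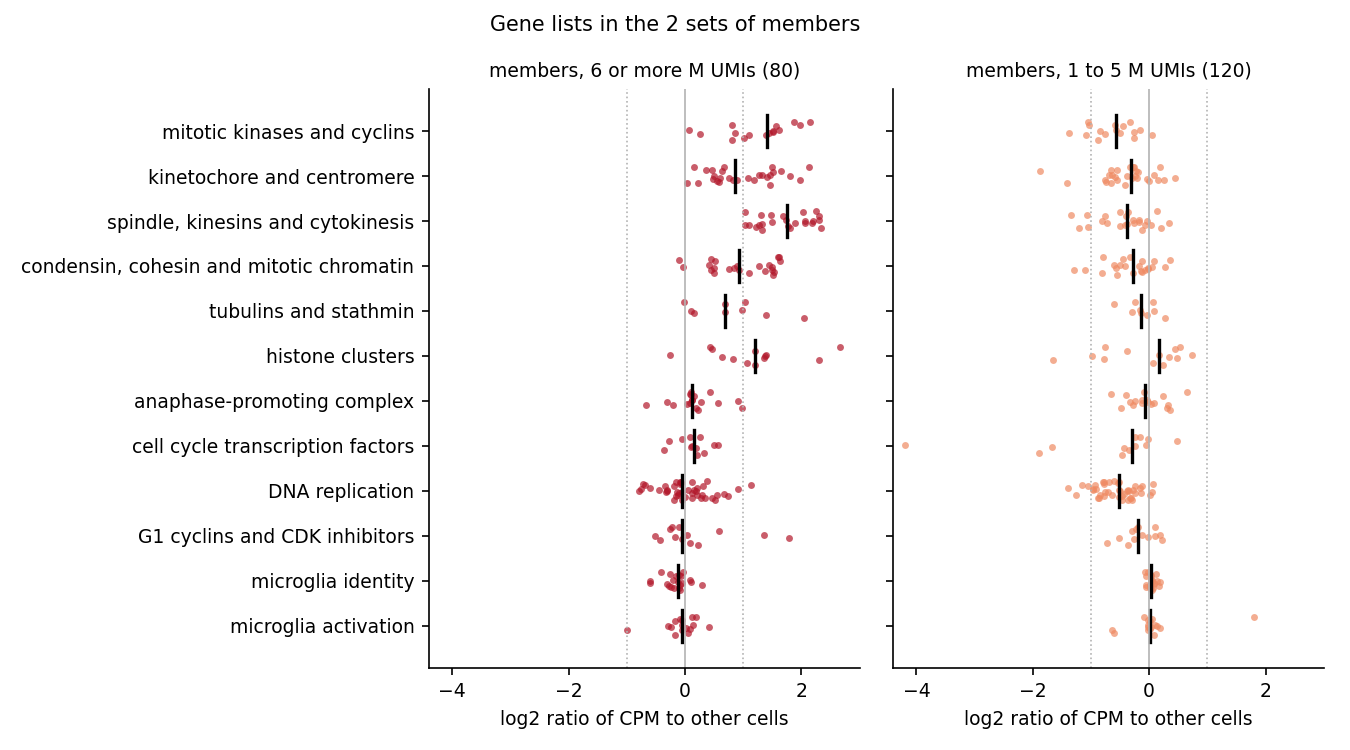
Log2 ratio of CPM to other cells for each measured gene of 12 lists in M-high members (left) and M-low members (right), with the median of each list as a black bar and dotted lines at 2-fold. The spindle list has a median of 1.75 on the left and -0.38 on the right, and microglia identity lies near 0 in both.

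DNA replication genes outside the score were close to the other cells in M-high members, with 1 of 44 past 2-fold (Rrm1, a subunit of ribonucleotide reductase, 70.8 against 31.9 CPM), near the 1.33% of all genes, none lower, and a median of -0.05. The summed ratio was 1.04 (0.995 to 1.09). The 514 other cells of closer depth had a median of 9122 UMIs, against 11033 in M-high members. Their mean of S UMIs was 7.09, against 5.20 in M-high members and 4.09 in all other cells. Against these 514 cells, 4 of the 44 were 2-fold lower and 1 was higher. Of all 7983 genes 112 (1.4%) were lower and 100 (1.25%) higher in that comparison. The median was -0.22 and the summed ratio 0.893 (0.850 to 0.937). In M-low members 4 of the 44 were 2-fold lower, beside 2.13% of all genes, none was higher, and the median was -0.52. The S genes were subtracted in the score, so a low level of genes that vary with them was part of the choice.

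The 200 members were also set beside the 200 cells at the other end of the score, which had a mean of 12.8 S UMIs and 1.27 M UMIs and are called replicating cells here. No cell was in both sets. Of the 7983 genes, 40 (0.501%) were at least 2-fold higher and 140 (1.75%) at least 2-fold lower in members. Of the DNA replication list 21 of 44 genes were 2-fold lower and none higher, with a median of -0.92. Pcna, the sliding clamp, was at 57.0 CPM against 204 CPM, Lig1, the ligase of lagging strands, at 47.4 against 164 CPM, and Tyms, thymidylate synthase, at 102 against 247 CPM. Spindle genes, pooled over all 200 members, were 2-fold higher in 5 of 24, with a median of 0.61. Tuba1c (92.8 against 25.8 CPM, 3.60-fold) and Hist1h2ae (3.71-fold) led the pooled ranking. The spindle list was at 3196 CPM in M-high members, 1050 CPM in M-low members and 1475 CPM in replicating cells. Cluster histones were at 1985, 518 and 791 CPM in the same order. In both lists the M-low members thus lay below the replicating cells. Pooled over all 200 members, Cdk1 was 1.10-fold (0.853 to 1.43) and the kinetochore list 1-fold in sum (0.951 to 1.05) the level of the replicating cells, but neither set of members was at that level. The kinetochore list was at 2533 CPM (2433 to 2637) in M-high members, 1019 CPM (941 to 1102) in M-low members and 1935 CPM (1867 to 2004) in replicating cells. Cdk1 was at 122, 22.7 and 74.9 CPM in the same order. Both ends of the score were chosen by it, and these values are a description.

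Histone mRNA divided the M-high members further. Replication-dependent histone genes, which package newly made DNA, were summed over 13 measured genes of the clusters. Their level was 1985 CPM in M-high members, 518 CPM in M-low members, 660 CPM in other cells and 791 CPM in replicating cells. Hist1h2ap, the most abundant, was at 1048 CPM in M-high members and 213 CPM in other cells. At least 20 histone UMIs per 10000 were found in 30 of 80 M-high members (37.5%, 26.9 to 49.0%), in 0 of 120 M-low members (upper limit 3.03%), in 113 of 3369 other cells (3.35%) and in 55 of the 118 other cells with 6 or more M UMIs (46.6%). Replicating cells reached that level in 11 of 200 (5.50%). These genes share long stretches of sequence, so reads may be assigned to the wrong copy and single histone genes are uncertain. Their mRNAs mostly lack a poly(A) tail, which a kit that primes on poly(A) captures poorly.

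**Figure D5:**
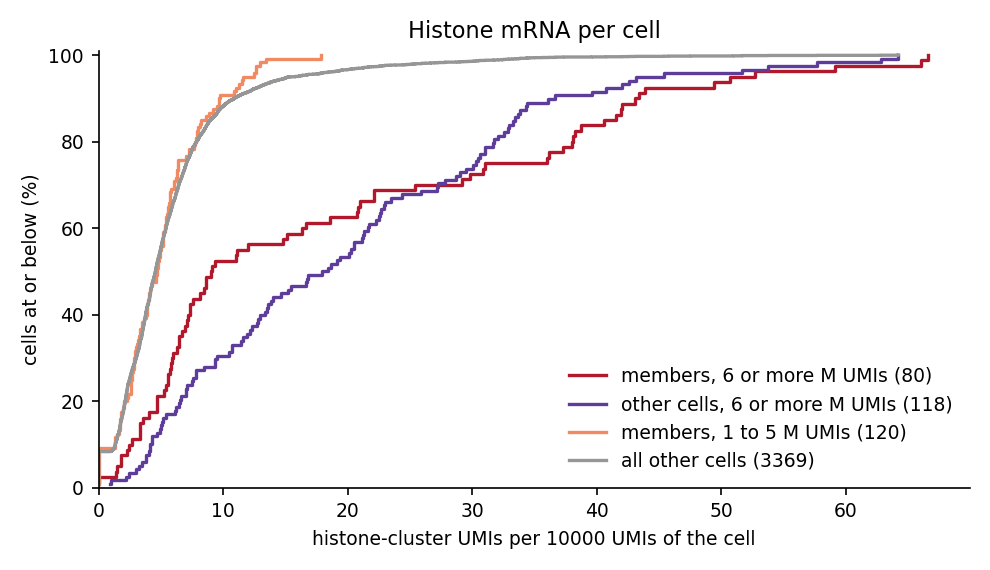
Share of cells (y axis, percent) at or below each level of histone-cluster UMIs per 10000 UMIs (x axis) for M-high members, the 118 other cells with 6 or more M UMIs, M-low members and all other cells. M-high members reach 66.6 per 10000, with 30 of 80 at 20 or more, whereas M-low members end at 17.9.

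The M-high members were split at their median of 9.05 histone UMIs per 10000 into 40 cells above and 40 below, a split made after the values were seen. The depth of both was alike (median 11225 and 10974 UMIs). Per cell, Hist1h2ap had 1, 23 and 64 UMIs (lowest, median, highest) above and 0, 1 and 8 below. Hist1h2ap was part of the sum that made the split, so this difference was set by it. The mitosis lists were at 17726 CPM above and 13023 CPM below, and the mean of M UMIs was 14.5 and 11.9. The DNA replication list was at 2368 CPM above and 1732 CPM below, and the mean of S UMIs was 6.3 and 4.1. Rrm2, a subunit of ribonucleotide reductase, was 2.17-fold (1.37 to 3.53), the S gene Mcm5 2.23-fold (1.12 to 4.66) and Ccne1, cyclin E1, 2.33-fold (1.02 to 5.77) higher above the median. Slbp, the histone mRNA binding protein, was 1.63-fold higher (1.17 to 2.29). Pcna (1.15-fold, 0.699 to 1.91), Mcm3 (1.32-fold, 0.730 to 2.40) and Mcm6 (0.848-fold, 0.417 to 1.71) had intervals that included 1. So had the remaining S genes, Gins2 (0.998-fold), Dtl (1.28-fold), Uhrf1 (1.62-fold), Ccne2 (1.83-fold) and Cdc6 (2.99-fold). Top2a was at 788 CPM above and 220 CPM below (3.58-fold, 2.87 to 4.49), Mki67 at 361 and 119 CPM and Cenpf at 283 and 116 CPM. Aurka was 2.11-fold (1.30 to 3.51), Plk1 1.996-fold (1.26 to 3.23), Ccnb2 1.46-fold (1.08 to 1.99) and Ube2c 1.38-fold (1.08 to 1.78) higher above the median. Hmmr (127 and 135 CPM), Tuba1c (131 and 127 CPM), Ccnb1 (171 and 155 CPM) and Cenpa (247 and 229 CPM) had fold intervals that included 1. Cdc20 was at 120 CPM above and 163 CPM below (0.739-fold, 0.515 to 1.05).

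Of 21 microglia identity genes none passed 2-fold in M-high members (median -0.11) or in M-low members (median 0.03), a count near the share over all genes. In M-high members 3 of the 21 lay above a ratio of 1, beside 3591 of all 7983 genes, and in M-low members 16 did. Tmem119 was at 3013 CPM in M-high members, 3469 CPM in M-low members and 3432 CPM in other cells. P2ry12, the purinergic receptor of surveying microglia, was at 1503 CPM in M-high members against 2292 CPM (0.656-fold, 0.622 to 0.691) and at 2504 CPM in M-low members. Gpr34, a lysophosphatidylserine receptor, was at 523, 845 and 796 CPM in the same order of M-high members, M-low members and other cells. Fcrls, a scavenger receptor-like gene, was at 1505 CPM in M-high members and 1231 CPM in other cells, and was 1 of those 3 genes above 1.

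In M-high members 1 of the 12 measured genes of cytokines and chemokines was at least 2-fold lower, beside 1.39% of all genes. No gene of any other list was, but the share of all tested genes that lie in a list was not counted. Summed over its genes, the list of cytokines and chemokines was 1.15-fold (1.11 to 1.20) the level of the other cells. Its median log2 ratio was -0.22 over the 12 measured genes. Against the 514 other cells of closer depth with at most 2 M UMIs, 4 of the 12 were 2-fold lower and none higher. Over all genes 1.4% were lower and 1.25% higher in that comparison, whereas the summed ratio of the list was 1.045 (1.001 to 1.09). In M-high members the 12 measured mitochondrial genome genes all lay above a ratio of 1 to all other cells (summed 1.23-fold). The 77 ribosomal protein genes had a median of 0.14, and glycolysis was 1.22-fold in sum, with Gapdh at 1066 against 717 CPM. Against the 514 cells these 3 values were smaller, at 1.16-fold, 0.087 and 1.12-fold. Immediate early genes were 0.871-fold and the list of microglia activation 0.959-fold the level of all other cells, with none of their genes 2-fold higher. Among genes with at least 50 CPM in members or other cells, the lowest 10 of the whole group ran from 0.609-fold (Adamts1, a secreted metalloprotease) to 0.682-fold (Tmem86a, a lysoplasmalogenase) and included the replication genes Rfc1 (0.637-fold) and Lig1 (0.661-fold) and Cd74, the invariant chain (0.680-fold). By the same minimum the lowest in M-high members was Adrb1, a beta-adrenergic receptor, at 32.8 CPM against 69.6 CPM.

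Of the 12 genes at least 2-fold higher in M-low members, the 3 with the highest ratio drew most of their UMIs from single cells. Spp1 (osteopontin) was at 82.8 CPM against 23.1 CPM in other cells, but 39 of its 51 UMIs lay in 1 cell. The chemokines Ccl3 and Ccl4 were 2.94- and 2.66-fold higher, with 68 of 97 and 114 of 151 UMIs in 1 cell each.

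The 8 microglia markers summed to 12192 CPM in members and 12787 CPM in other cells, with Tmem119 the most abundant. Of 7 monocyte markers Ccr2, Ly6c2, Chil3, Ifitm6 and Vcan were at 0 and the sum was 5.76 CPM, led by Plac8. Of 7 perivascular macrophage markers Cd163, Lyve1, Cbr2 and Ms4a7 were at 0 and the sum was 3.20 CPM, led by Pf4. The 5 neuron markers were at 0, and the 5 astrocyte markers summed to 2.56 CPM, led by Gfap. Neutrophil markers summed to 151 CPM, nearly all of it Csf3r, with Ly6g and Retnlg at 0. Cd79b, a B cell receptor subunit, was at 51.2 CPM in members and 54.6 CPM in other cells, with Cd79a and Ms4a1 at 0 in members. Oligodendrocyte markers summed to 50.6 CPM, led by Mag, with Mog at 0, and endothelial ones to 14.7 CPM, led by Pecam1, with Cldn5 and Flt1 at 0. T or NK cell markers summed to 7.04 CPM, led by Gzma, with Cd3e at 0, and those of red blood cells to 5.76 CPM, led by Hba-a1.

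At least 6 M UMIs were found in 198 of 3569 cells of library 2 (5.55%, 4.82 to 6.35%), in 3 of 3284 cells of library 3 (0.0914%, 0.0188 to 0.267%) and in 0 of 408 cells of library 1. For library 1 this limit was nearly out of reach and the 0 says little, since its deepest cell held 5471 UMIs and the shallowest M-high member 4283. The score of the last member was reached by 6 cells of library 1, each with 1 M UMI, and by 4 cells of library 3, with 1, 3, 1 and 10 M UMIs. Any M UMI was counted in 63.2% of library 2 cells, 2.77% of library 3 cells and 1.96% of library 1 cells. The median depth of the cells counted here was 2487 UMIs in library 1, 5961 in library 2 and 5768 in library 3; libraries 2 and 3 were thus of like depth, whereas cells of library 1 held fewer UMIs. The mitosis lists were at 3195 CPM in library 1 and 3312 CPM in library 3, under the 6119 CPM of the library 2 cells with no M UMI. With 1 library each, library, time point and pool of animals cannot be told apart.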

How the data were processed

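The authors deposited 1 matrix of UMI counts (27998 genes by 7522 cells), in which barcode suffixes separate 3 libraries. The submitters' processing notes name Cell Ranger 2.1.1 and mm10 without saying what each was used for. Here cells with at least 2000 UMIs were kept, and no doublet caller was run; per the methods, the sort selected on size and left out doublets. Counts were summed over the cells of a set and scaled to CPM, with the log2 ratio taken after adding 1 CPM. Genes with at least 10 CPM over library 2 were compared, and 2-fold was the limit of a call. No test was made, because cells of 1 library are not replicates. Members and lists were chosen with earlier results of these data known. Named genes were the 15 highest and 10 lowest by log2 ratio with at least 50 CPM in either set, the score genes, the list members and the most changed genes of the other comparisons. Thinning to 2000 UMIs used seed 1. The code for folds, counting intervals and 2-fold calls was tested on simulated pooled counts without differences between cells. The choice of cells, the thinning, the splits and the motif search were not simulated. Promoter windows came from RefSeq (GRCm38.p6), in which 27025 symbols had at least 1. Python 3.11.15, numpy 2.4.6, scipy 1.17.1, pandas 2.3.3 and matplotlib 3.10.9 were used. A few marker results are not reported here.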

Additional observations from a re-analysis of the deposited data

How the results depend on the processing

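No paired analysis was possible because each library is 1 sample and the labels give no replicate numbers. Among the members the main values were 45 genes higher and 21 lower than in other cells, a ratio of median UMIs of 1.08, and summed log2 ratios of 0.69 (mitosis lists), -0.15 (DNA replication) and -0.08 (microglia identity); the values below follow this order. With the 100 highest cells they were 79, 83, 1.43, 0.91, -0.01 and -0.12, and with 400 cells 13, 0, 0.978 (0.96 to 1.03), 0.45, -0.24 and -0.05. With cells of at least 4000 UMIs the mitosis lists were at 0.66. Thinning to 2000 UMIs kept 79 members and gave 312 lower genes, a ratio of 1, and 0.42, -0.09 and -0.02. Scoring on M genes alone kept 103 members and gave 111, 13, 1.65, 1.06, 0.31 (reversed) and -0.16. Choosing on a split of the UMIs gave 108 lower genes, 0.922 (0.80 to 1.01), 0.58 and, for microglia identity, -0.05. Against cells with no score-gene UMI they were 251, 96, 1.45, 1.03, 0.39 (reversed) and -0.16. With cells weighted equally the mitosis lists were at 0.54 and microglia identity at -0.05. Without the 5% deepest cells they were 12 higher genes, 0.971 (0.88 to 1.05), 0.46, -0.21 and -0.05, and 52 cells with 6 or more M UMIs were among the 200. Gene counts (higher, lower) were 11 and 0 for genes of at least 50 CPM, 175 and 255 for genes with any UMI, 24 and 0 with 10 CPM added, and 143 and 225 at 1.5-fold. In alternatives chosen after seeing the data, M-high members alone gave 106, 111, 1.85, 1.06, 0.06 (-0.01 to 0.12) and -0.17. All 198 cells with 6 or more M UMIs gave 112 higher genes, 1.95, 1.07, 0.37 (reversed) and -0.18. M-low members alone gave 12, 170, 0.870 (reversed), -0.17 (reversed), -0.54 and 0.05 (reversed). With counting intervals clear of 0, the direction of the mitosis lists turned in 1 of 13 alternatives and that of DNA replication in 3 of 13; the values followed by an interval passed 0 (log2 ratios) or 1 (ratio of median UMIs) with an interval that includes it. The other 20 values of the 86 stayed within counting error or 1.5 times of the main count, and comparison cells of the members' depth gave 51, 22, 1.07, 0.71, -0.14 and -0.08. The cause of each change was not tested. The placing of single cells near the limit is uncertain: the last 10 members had 1 to 6 M UMIs, with a median of 2, and the first 10 cells outside had 1 to 12.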
